A study of Mus musculus with 18 samples.

Results

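The genes described here are the protein-coding neighbours of Gckr on mouse chromosome 5. They were chosen by position alone, as protein-coding genes of the GENCODE annotation (genome build GRCm39) lying wholly between positions 29000000 and 34000000. Gckr itself and Khk, Hadha and Hadhb were left out, which took 78 genes to 74. Of these 74 genes, 51 had at least 10 estimated counts in at least 4 libraries and were tested, out of 10938 genes tested across the genome. Gckr occupies positions 31454787 to 31484658, and 28 of the 51 genes lie at lower and 23 at higher coordinates. No measured difference between genotypes is part of this rule, although the genes were chosen with earlier results of these data known.

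Liver RNA was sequenced from 18 mice fed standard chow, with 1 library per mouse. The mice were homozygous either for the wild-type proline form of glucokinase regulatory protein (PP) or for a knock-in of the leucine form (LL), encoded by Gckr. Each genotype was represented by 4 males and 5 females. According to the methods of the study the LL mice come from 1 genome-edited line on the B6N background, so what is true of the edited chromosome of that line is shared by the LL mice. Mice were between 9 and 14 weeks old by their labels, although the series text names 14 weeks throughout. Labelled ages were 9 to 14 weeks in PP mice of either sex, 13 to 14 in male LL and 11 to 14 in female LL mice. The youngest mice were therefore all PP. The edit is carried in the germ line, and the RNA came from whole liver. In such bulk RNA, fewer cells of a type and less RNA per cell cannot be told apart.

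When a chromosome is altered at 1 gene, neighbouring genes can change with it in more than one way. A cis effect is a change in a nearby gene on the same chromosome, for example through a shared enhancer or through transcription running on from the edited gene. A passenger effect comes from other sequence differences that are inherited together with the edited site because recombination rarely separates them. The question was whether LL differed from PP in these genes in both sexes. Gene totals hold no sequence variants, so differences inherited with the edit could not be looked for directly.

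Total estimated counts were 3794671 to 6613905 per library. Gckr was 518 ± 82.2 normalized counts in male PP, 478 ± 24.6 in male LL, 611 ± 114 in female PP and 592 ± 60.6 in female LL livers (mean ± SD, n = 4, 4, 5 and 5). LL relative to PP, its log2 fold change (± SE) was -0.12 ± 0.15 for males (DESeq2 adjusted P of 0.860) and -0.05 ± 0.13 for females (0.915). Gene totals cannot show which amino acid a transcript encodes, so they do not check the genotype labels. All 6 hepatocyte markers were detected. Their summed normalized counts were 437794 to 545941 in male PP and 523399 to 628177 in male LL, and 746561 to 833593 in female PP and 620096 to 747114 in female LL livers, where only the highest LL value reached the lowest PP value. The Kupffer cell and macrophage markers were lower in female LL (summed 448 to 723) than in female PP livers (752 to 932), without overlap. The cholangiocyte markers were lower in male LL (54.8 to 73.2) than in male PP livers (74.8 to 117), also without overlap. The part of these shifts in the values below was not tested.

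Together the 51 genes carried between 0.0650% and 0.10% of a library's estimated counts. By mean TPM, an abundance per transcript length, the highest were Ost4 (94.5), a small subunit of the oligosaccharyltransferase that attaches sugars to new proteins, Atraid (87.8), and Mrpl33 (63), a protein of the large mitochondrial ribosomal subunit. Preb, which activates the small GTPase that starts vesicle export from the endoplasmic reticulum, followed at 44.5, and the co-chaperone gene Dnajb6 at 32.7. At the other end were Lmbr1 (0.425) and the AP-1 transcription factor gene Fosl2 (0.348). In normalized counts, which set the precision of a comparison, 15 genes averaged above 100 and 9 averaged below 20. Within groups, the SD of log2 counts was 0.14 for both the pseudokinase gene Nrbp1 and Preb, but 1.09 for Abhd1, an alpha/beta hydrolase gene that averaged 8.02 counts. Ost4 had 165 to 210 normalized counts in male PP, 146 to 229 in male LL, 158 to 241 in female PP and 162 to 262 in female LL livers, and Atraid 173 to 198, 159 to 234, 169 to 213 and 190 to 216. The genotypes overlapped throughout.

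The 23 genes that were not tested held few or no reads. They included Il6, Ucn, Otof and Kcnk3, whose highest estimated counts in any library were 1, 0, 0 and 3. Nearest to the limit from below was Gm29609, with at least 10 counts in 2 libraries, and nearest from above were Agbl5 and Abhd1, each with at least 10 counts in 5.

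In male livers none of the 51 genes was called between LL and PP under the study's limits. A gene was called when its DESeq2 adjusted P-value was below 0.05 and its fold change at least 1.3 or at most 0.7. By this rule 0 of 51 genes and 31 of all 10938 genes (0.283%) were called. DESeq2 gave an adjusted P-value to only 13 of the 51 genes in males, since its filter on mean count left out the others, which therefore could not be called. edgeR and limma also called 0 of the 51, but they called few genes at all, 3 of 10938 and 0 of 12309. Without adjustment 3 genes had a DESeq2 p below 0.05, or 5.88% of the 51 against 7.83% of all genes, and edgeR gave 4. The 3 were Cgref1, Ppp1cb and Prr14l, and without the library of male PP 3 there were 6. The counts of 4 and 6 are given without the share of all genes, so they are no result about the 51 genes. The normalized counts of LL and PP males did not overlap for 2 of the 51 genes (Cgref1 and Ppp1cb), or 3.92%, against 4.07% of all genes.

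Cgref1, which encodes a secreted protein with calcium-binding EF-hand motifs, had the widest separation between male groups. Its gene (ENSMUSG00000029161) lies on the minus strand at chr5:31087700-31102935, 352 kb from Gckr. Normalized counts (estimated counts divided by a size factor per library) were 1.60, 11.5, 6.58 and 7.20 in the male PP livers and 13.0, 32.4, 18.7 and 19.4 in the male LL livers. Every male LL value was above every male PP value, but all were low. In females they were 7.19, 10.9, 10.9, 8.15 and 7.63 in PP and 16.4, 28.7, 14.6, 8.64 and 7.66 in LL livers. Here 3 of 5 LL livers stood above all PP livers, and the other 2 lay among them. For males this gave a log2 fold change of 1.57 ± 0.47 (unadjusted DESeq2 p of 0.000840), and for females 0.78 ± 0.39 (0.0466). DESeq2 gave no adjusted P-value in either sex, because its filter on mean count left the gene out.

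The 250 bases upstream of the main Cgref1 transcript, Cgref1-201 (chr5:31102936-31103185, minus strand, read 5′ to 3′ from the GRCm39 genome), are shown beside those of Prr14l (chr5:33011684-33011933, minus strand), since these were the only genes of the 51 with an unadjusted p below 0.05 in the same direction in both sexes. Capitals would mark the letters CACGTG, an E-box core.
Cgref1: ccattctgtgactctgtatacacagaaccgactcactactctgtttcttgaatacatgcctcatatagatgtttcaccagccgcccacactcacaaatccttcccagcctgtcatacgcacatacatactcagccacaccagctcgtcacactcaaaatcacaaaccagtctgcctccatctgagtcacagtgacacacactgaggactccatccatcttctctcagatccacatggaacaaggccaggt
Prr14l: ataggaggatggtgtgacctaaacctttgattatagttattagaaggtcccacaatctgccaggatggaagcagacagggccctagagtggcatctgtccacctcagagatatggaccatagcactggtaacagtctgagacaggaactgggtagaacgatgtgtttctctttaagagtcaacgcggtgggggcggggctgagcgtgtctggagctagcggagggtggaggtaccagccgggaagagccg
Neither window holds CACGTG, a motif that reads the same on both strands. The windows hold 4 and 8 CpG pairs, and 11 bases at the downstream end of the Prr14l window lie in annotated exon. Over the 51 genes the motif was in 2 windows (Tyms and Zfp512), or 3.92%, against 7.43% of 10937 windows of tested genes.

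Ppp1cb encodes a catalytic subunit of protein phosphatase 1, which removes phosphate from many proteins including those of glycogen metabolism. Its counts were 299, 246, 318 and 303 in male PP and 359, 336, 331 and 420 in male LL livers, with no overlap. In males the log2 fold change was 0.31 ± 0.13, with an adjusted P of 0.318 by DESeq2. In females it was 0.02 ± 0.12, with counts of 276 to 350 in PP and 280 to 383 in LL livers.

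Mpv17 and Ywhah completed the 5 lowest male p-values. Mpv17, an inner mitochondrial membrane protein needed to keep mitochondrial DNA, gave 97.6, 102, 118 and 114 counts for male PP livers and 157, 133, 101 and 152 for male LL livers. Only 1 LL liver lay within the PP range. Its log2 fold change was 0.32 ± 0.16 in males (DESeq2 adjusted P of 0.445) and -0.03 ± 0.14 in females.

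In female livers none of the 51 genes was called either, against 72 of all genes (0.658%), and edgeR and limma again called 0. Here 42 of the 51 genes had an adjusted P-value and could be called. Without adjustment 8 genes had a DESeq2 p below 0.05, or 15.7% of the 51 against 13.0% of all genes, and edgeR gave 9. These were Ube3c, Ywhah, Maea, Mapre3, Mrpl33, Babam2, Cgref1 and Prr14l. The count was 1 in place of 8 without the library of female PP 5, 4 without female PP 1, female PP 2 or female LL 1, and 5 without female PP 3, female LL 2, female LL 4, male PP 4 or male LL 4. The edgeR count and these counts are given without the shares of all genes, so they are no result about the 51 genes. One gene, Maea, had LL and PP counts that did not overlap, or 1.96% of the 51 against 2.66% of all genes.

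Among the genes of protein turnover and translation, Ube3c, a ubiquitin ligase acting with the proteasome, had the lowest female p. Counts were 116, 101, 123, 88.8 and 173 in female PP and 71.9, 95.8, 87.8, 75.3 and 94.1 in female LL livers. Female PP 5 was the highest, and the groups overlapped only through female PP 4. Its log2 fold change was -0.50 ± 0.20 in females (DESeq2 adjusted P of 0.181), and 0.26 ± 0.22 in males. Maea, a subunit of the CTLH ubiquitin ligase complex, had counts of 64.7, 78.2, 68.8, 63.4 and 75.7 in female PP and 45.5, 57.3, 47.2, 58.0 and 59.1 in female LL livers. All female LL values were below all female PP values. LL stood at -0.40 ± 0.18 relative to PP on the log2 scale (DESeq2 adjusted P of 0.265), and at -0.02 ± 0.21 in males.

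Mrpl33 counts were 82.2, 73.6, 68.8, 95.1 and 43.0 in female PP and 123, 85.0, 92.7, 120 and 82.1 in female LL livers. The ranges overlapped, with 2 LL livers above all PP livers. For females the log2 fold change was 0.47 ± 0.22 (DESeq2 adjusted P of 0.291), and for males 0.08 ± 0.25. Mapre3, a protein that binds growing microtubule ends, had counts of 53.5, 81.8, 87.3, 78.8 and 53.4 in female PP and 83.8, 86.9, 84.6, 96.3 and 109 in female LL livers. The groups overlapped, and the log2 fold change was 0.38 ± 0.18 in females (DESeq2 adjusted P of 0.290) and -0.03 ± 0.21 in males.

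**Figure D1:**
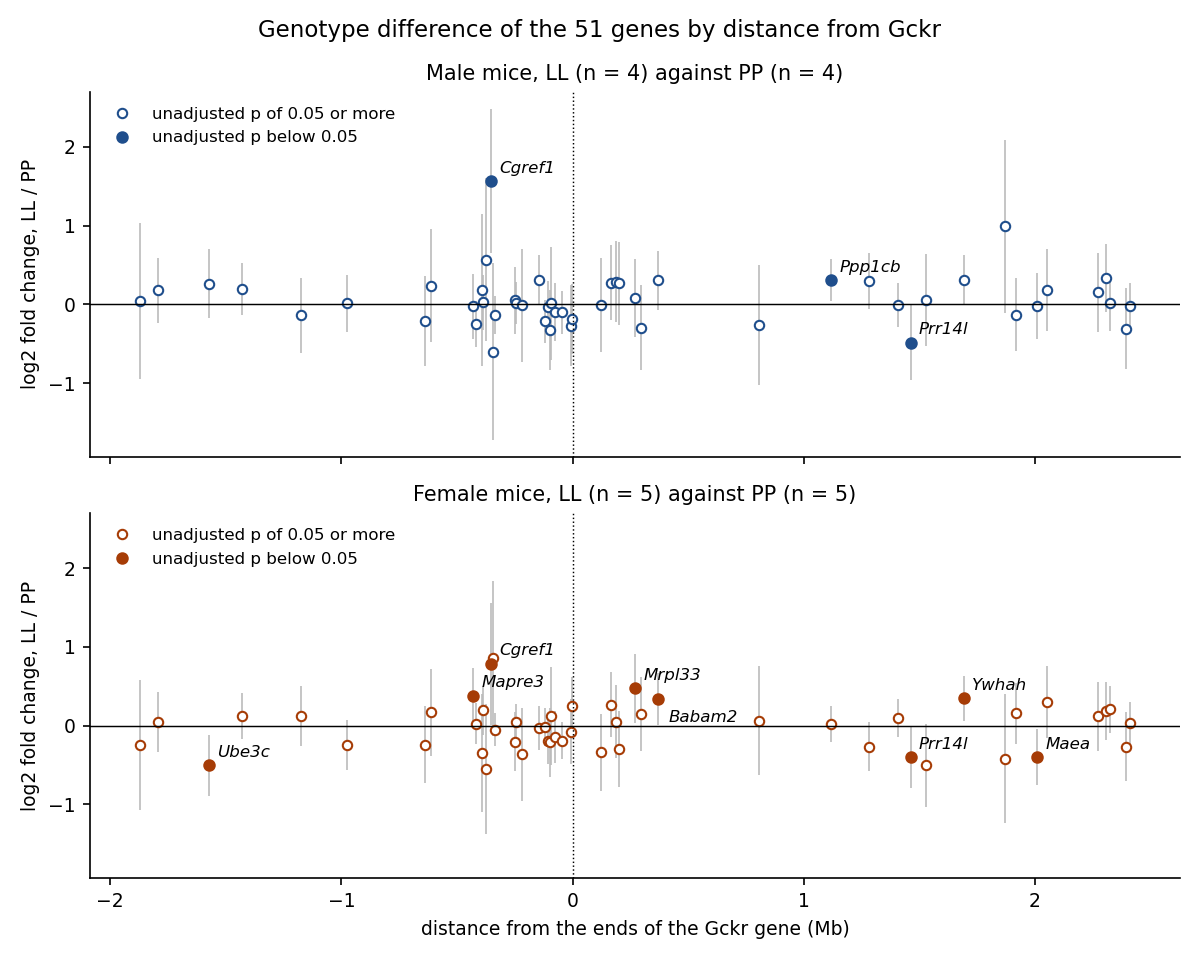
Log2 fold change of LL relative to PP (y axis) for each of the 51 genes against distance from the nearer end of Gckr in Mb (x axis, negative for lower coordinates), in male (top) and female (bottom) mice. Points are estimates, bars are 95% confidence intervals and filled points have an unadjusted DESeq2 p below 0.05; Cgref1 at 352 kb stands highest in males at 1.57, and most other points lie near 0 at all distances.

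The sexes were then combined. In the average of the male and female log2 fold changes, 0 of the 51 genes were called, against 107 of all genes (0.978%), and edgeR and limma called 0. An adjusted P-value was given to 39 of the 51 genes. There were 4 genes with an unadjusted DESeq2 p below 0.05, or 7.84% of the 51 against 13.8% of all genes, and edgeR gave 4. By DESeq2 they were Cgref1, Ywhah, Prr14l and Babam2. The edgeR count is given without the share of all genes beside it. Cgref1 had an averaged log2 fold change of 1.18 ± 0.31 with an unadjusted p of 0.000125, which ranked 78 of 10938, but no adjusted P-value. When DESeq2 adjusted over all tested genes without its filter, Cgref1 was called at an adjusted P of 0.0175. It was also called when 1 library was left out, for female PP 1, 2 and 3 and male PP 2 and 4, with adjusted P of 0.0175 to 0.0456. Without male LL 2 it was not called (DESeq2 adjusted P of 0.0740). In the other omissions it had no adjusted P-value and could not be called. With edgeR its adjusted P was 0.105. At 12.8 counts on average, whether Cgref1 was called depended on how genes of low count were treated in the adjustment.

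Ywhah encodes the eta form of 14-3-3 proteins, which bind phosphorylated partners. Its counts were 147, 165, 158 and 110 in male PP and 215, 191, 152 and 163 in male LL livers. In females they were 108, 138, 126, 116 and 143 in PP and 140, 184, 172, 149 and 155 in LL livers. The groups overlapped in both sexes, by 2 LL livers in males and 1 in females. Log2 fold changes were 0.31 ± 0.16 in males and 0.35 ± 0.14 in females, and averaged 0.33 ± 0.11 (DESeq2 adjusted P of 0.0712).

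Prr14l, a large gene whose function in liver is little known, was the only other gene with p below 0.05 in both sexes. Counts were 49.6, 35.7, 38.5 and 53.1 in male PP and 40.2, 29.97, 25.9 and 31.3 in male LL livers. In females they were 47.9, 46.4, 49.5, 38.0 and 50.7 in PP and 24.6, 38.5, 30.1, 43.2 and 42.7 in LL livers. LL values lay lower but overlapped with PP in both sexes. The averaged log2 fold change was -0.44 ± 0.16 (DESeq2 adjusted P of 0.0992), from -0.48 ± 0.24 in males and -0.40 ± 0.20 in females. Babam2 encodes a scaffold of the BRCA1-A DNA repair complex. Its counts were 44.8, 60.9, 72.4 and 53.1 for male PP livers and 71.3, 77.9, 68.7 and 72.4 for male LL livers. For females they were 50.3, 47.3, 52.9, 60.7 and 43.7 in PP and 50.1, 63.2, 62.6, 79.0 and 67.8 in LL livers. The genotypes overlapped in both sexes, and the averaged log2 fold change was 0.32 ± 0.13 (DESeq2 adjusted P of 0.144).

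**Figure D2:**
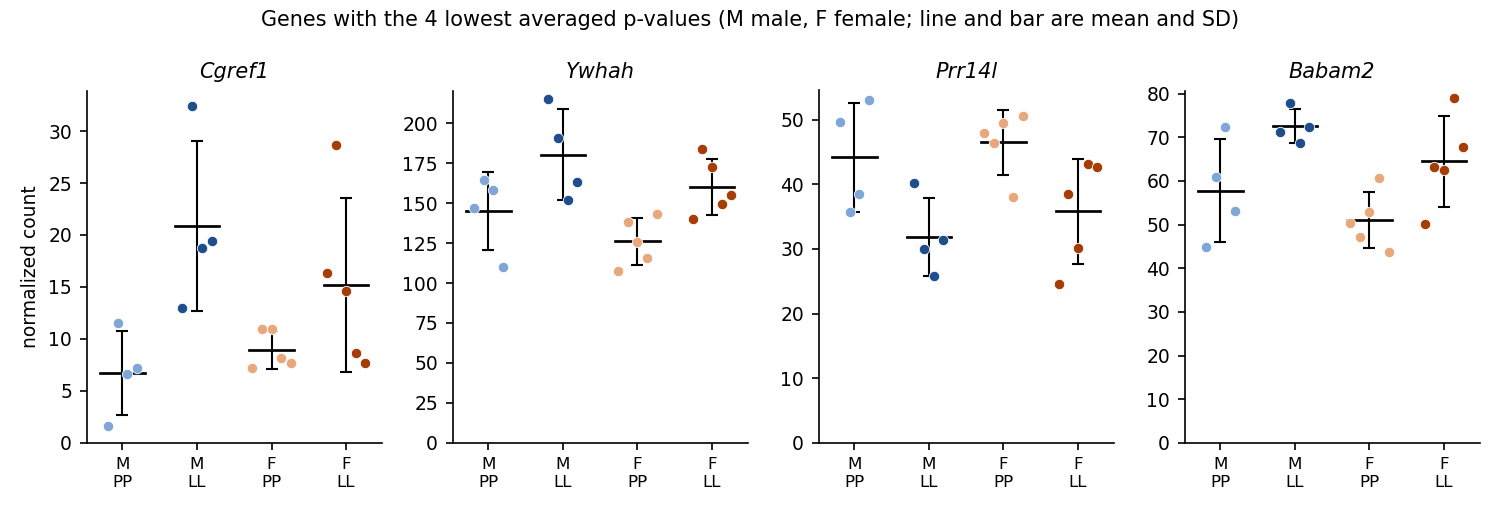
Normalized counts (y axis) of the 4 genes with the lowest averaged p-values in each of the 18 livers, by sex and genotype (x axis). Points are single mice, and lines and bars are group means and SD; male LL livers lie above male PP livers without overlap for Cgref1 only.

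Having p below 0.05 in both sexes with the same sign was true of 2 of the 51 genes (Cgref1 and Prr14l), or 3.92%, against 1.41% of all genes. Among 51 genes that share rests on these 2 alone. Under other settings p stayed below 0.05 for Cgref1 in 29 of 29 in males but 12 of 29 in females. For Prr14l it did so in 13 of 28 in males and 10 of 28 in females, so that for both genes it was lost in 1 sex or more under most settings. Leaving off independent filtering cannot change an unadjusted p, nor can the 1 Mb window for Cgref1. The tallies therefore partly repeat the main result. LL and PP counts that did not overlap in both sexes in the same direction were found for 0 of the 51 genes, against 0.128% of all genes. The log2 fold change had the same sign in males and females for 30 of the 51 genes, or 58.8%, against 57.6% of all genes. Pearson's r between the male and female log2 fold changes was 0.09 over the 51 genes and -0.19 over the 50 without Cgref1. The male and female libraries are separate, but the points share 1 fit and neighbouring genes are not independent, so these are descriptions. The median log2 fold change of the 51 genes was 0.015 in males and 0.023 in females, against 0.00 and 0.01 for all genes. The median size of the log2 fold change without regard to sign was 0.18 and 0.21 against 0.19 and 0.20.

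**Figure D3:**
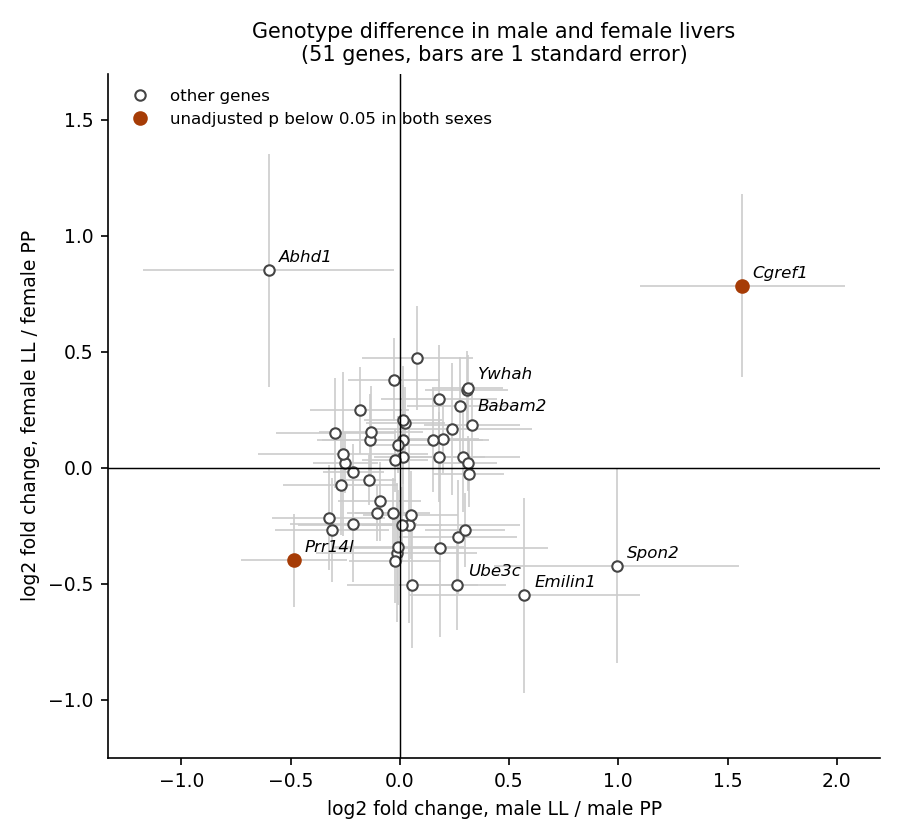
Log2 fold change of LL relative to PP in females (y axis) against that in males (x axis) for the 51 genes, with bars of 1 SE. Filled points, Cgref1 and Prr14l, had an unadjusted DESeq2 p below 0.05 in both sexes; the other points surround 0 without a common slope (r of -0.19 without Cgref1).

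The genotype by sex interaction, tested without a fold limit, gave 0 calls among the 51 genes against 13 of all genes (0.119%), with 0 by edgeR and limma. DESeq2 gave an adjusted P-value here only to Dnajb6 (0.938) and Ppp1cb (0.612), so it could not have called the other genes. Unadjusted DESeq2 p below 0.05 was found for 3 of the 51 genes (Ube3c, Yes1 and Spon2), or 5.88% against 5.67% of all genes. Yes1, a Src family kinase, stood at 0.30 ± 0.18 for males and -0.27 ± 0.16 for females on the log2 scale.

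A gene that was not called may still differ, and the confidence intervals give the size that remains possible. The 95% interval of the averaged log2 fold change lay within a 2-fold change either way for 50 of the 51 genes, with Cgref1 the exception (0.57 to 1.78). It lay within 1.5-fold for 36 of them. Within a single sex the intervals were wider, and lay within 2-fold for 44 genes in males and 44 in females and within 1.5-fold for 18 and 24. The genes whose single-sex interval passed 2-fold in both sexes were Lmbr1, Agbl5, Emilin1, Cgref1, Abhd1 and Spon2.

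The nearest neighbours were described whatever their values, as the 5 tested genes closest to Gckr on each side. None of these 10 genes was called in either sex or in the average, and only Mrpl33 in females had an unadjusted DESeq2 p below 0.05. Among all genes such a p was found for 7.83% in males, 13.0% in females and 13.8% in the average. Of the 10, DESeq2 gave only Nrbp1 an adjusted P-value in males (0.864), so the others could not be called there. Zfp513 had none in females, and Zfp513 and Zfp512 had none in the average. Fndc4, a secreted fibronectin domain protein related to irisin, starts 1.00 kb from Gckr and is the closest. Its counts were 68.8, 64.0, 54.5 and 52.2 in male PP and 41.5, 57.5, 48.2 and 61.6 in male LL livers. In females they were 57.5, 84.6, 52.9, 84.3 and 48.6 in PP and 78.3, 68.2, 65.0, 87.6 and 89.7 in LL livers. The groups overlapped in both sexes and the estimates pointed opposite ways, with log2 fold changes of -0.18 ± 0.23 and 0.25 ± 0.19 and an averaged interval of -0.25 to 0.32.

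Ift172, a component of the transport machinery of cilia, lies 6.28 kb from Gckr. Counts were 30.4, 39.9, 32.9 and 25.2 in male PP and 31.1, 24.0, 27.7 and 23.8 in male LL livers, which overlapped. Female counts were 21.7 to 44.4 in PP and 31.6 to 43.2 in LL livers, and the averaged log2 fold change was -0.17 ± 0.17. Nrbp1, 45.9 kb away, had 135 to 161 counts in male PP, 115 to 157 in male LL, 128 to 166 in female PP and 120 to 132 in female LL livers. Its averaged log2 fold change was -0.15 ± 0.09 (DESeq2 adjusted P of 0.405), and its interval of -0.33 to 0.03 was among the narrowest. Ppm1g, a nuclear protein phosphatase, and Zfp513, a zinc finger protein, had averaged log2 fold changes of -0.12 ± 0.13 and 0.07 ± 0.24.

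On the side of higher coordinates the nearest tested gene was Zfp512, 125 kb away, another zinc finger protein. Its counts were 17.9 to 26.2 in male PP and 16.8 to 24.8 in male LL livers, and 23.6 to 29.5 in female PP and 9.88 to 25.9 in female LL livers, all overlapping. Gpn1, a GTPase that brings RNA polymerase II to the nucleus, had log2 fold changes of 0.27 ± 0.24 in males and 0.27 ± 0.21 in females, and 0.27 ± 0.16 on average (DESeq2 adjusted P of 0.389). Supt7l, a subunit of the SAGA-type coactivator complex, averaged 0.17 ± 0.18, and Slc4a1ap averaged -0.02 ± 0.18 from 0.27 ± 0.27 in males and -0.30 ± 0.25 in females. Mrpl33, the fifth on this side, is described above among the genes with the lowest female p.

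**Figure D4:**
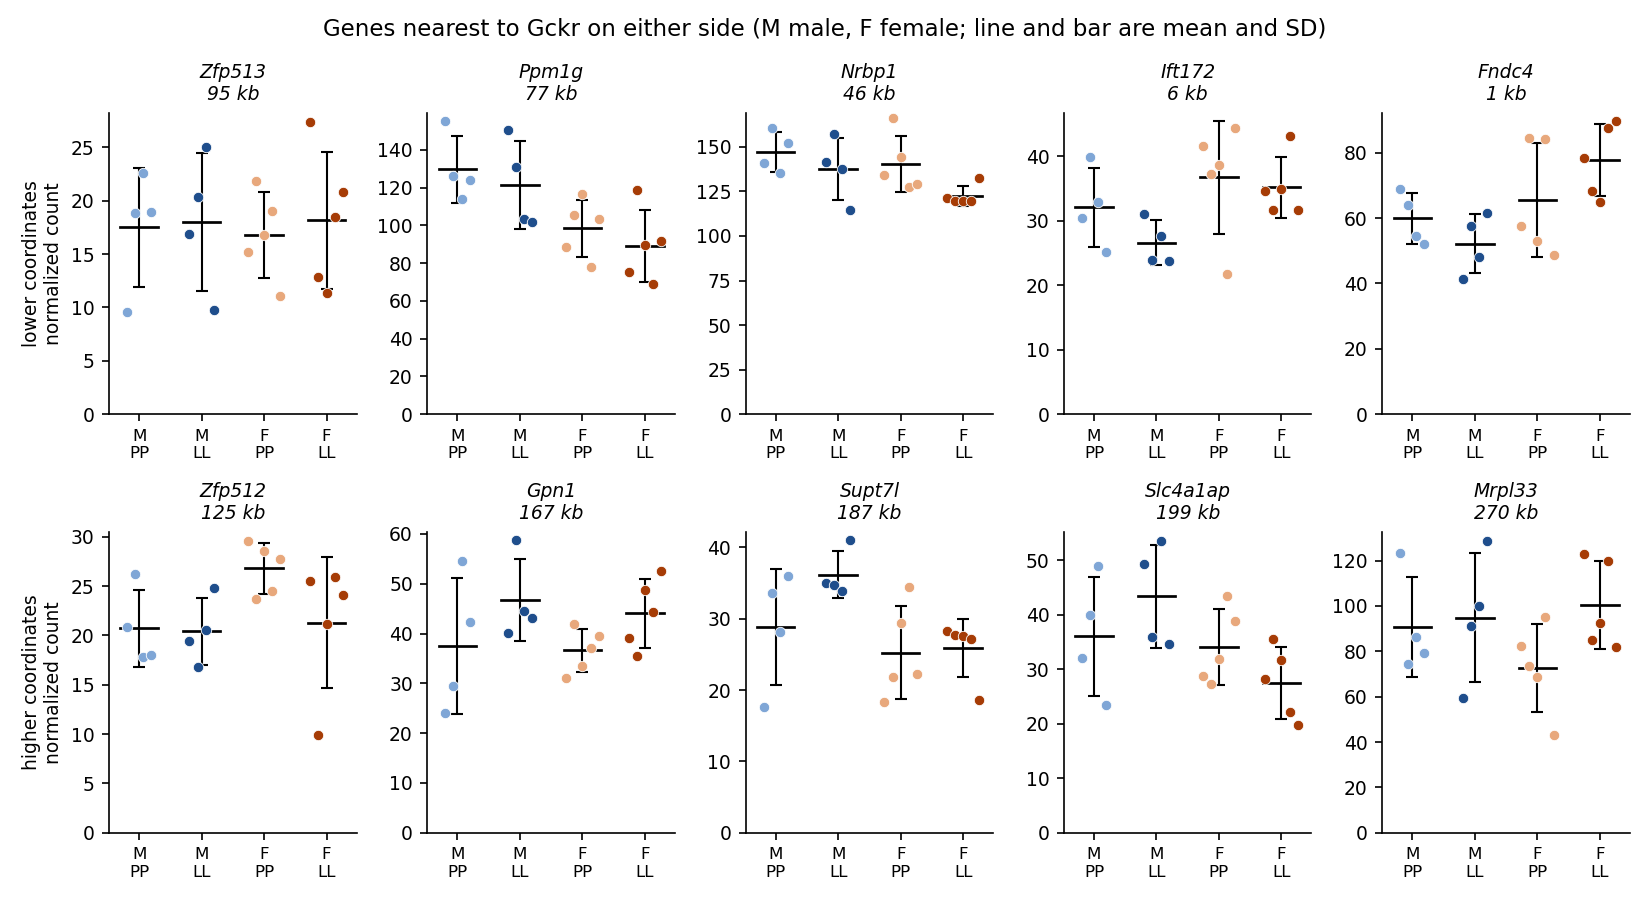
Normalized counts (y axes, each starting at 0) in each of the 18 livers for the 5 tested genes nearest to Gckr at lower (top) and higher (bottom) coordinates, by sex and genotype (x axis), with the distance from Gckr in kb above each panel. Points are single mice, and lines and bars are group means and SD; LL and PP points overlap in both sexes in all 10 genes.

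Differences were next set against distance from Gckr. Within 250 kb there were 16 genes, of which 0 had an unadjusted DESeq2 p below 0.05 in males, females or the average. Between 250 kb and 1 Mb there were 15 genes, with 1, 4 and 2 such genes in the 3 contrasts, and beyond 1 Mb there were 20 genes, with 2, 4 and 2. The shares of all genes with such a p were 7.83%, 13.0% and 13.8%. The bands are small, and differences between them were not tested. The median size of the averaged log2 fold change was 0.13, 0.12 and 0.15 in these bands, against 0.15 for all tested genes. Spearman's rho between distance and the size of the log2 fold change was 0.02 in males and 0.12 in females over the 51 genes. Genes at lower and higher coordinates had median averaged log2 fold changes of -0.08 and 0.05.

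By role, the 9 genes of chromatin, transcription and DNA repair had a median averaged log2 fold change of 0.07, with 0 called and 1 at an unadjusted p below 0.05, Babam2. The group also holds Ctbp1, a corepressor, at 0.01 ± 0.15 and Cenpa, the centromeric histone variant, at 0.20 ± 0.23. The 10 genes of metabolism, transport and mitochondria had a median of -0.04 and 0 genes at an unadjusted p below 0.05 in either sex. Among them Pisd, which makes phosphatidylethanolamine in mitochondria, was at 0.05 ± 0.09, Rbks, the ribokinase, at -0.07 ± 0.18, and Slc5a6, the transporter of biotin and pantothenate, at -0.08 ± 0.14. Cad, which starts pyrimidine synthesis, was at -0.19 ± 0.24, on 16.3 counts.

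The 8 genes of the secretory pathway had a median of 0.02, with Cgref1 the single gene at p below 0.05. Preb was at -0.10 ± 0.08 and Ost4 at 0.11 ± 0.12. The 8 genes of RNA processing, translation and protein turnover had a median of 0.11, with 0 at p below 0.05 in the average. In females 3 of these 8 (Ube3c, Maea and Mrpl33) had such a p, against 13.0% of all genes. The 10 genes of signalling, cytoskeleton and cilia had a median of -0.10, and include Fgfr3, a growth factor receptor, at -0.29 ± 0.17. In this group p was below 0.05 for Ywhah in the average, Ywhah and Mapre3 in females and Ppp1cb in males. The remaining 6 genes, of other or unsure role, had a median of 0.01 and include Prr14l and Atraid (0.03 ± 0.09).

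Differences by sex were compared to see how much these genes vary with a known influence on the liver. In PP mice 1 of the 51 genes was called between females and males, or 1.96% against 6.45% of all genes, and edgeR also called 1. Limma on TPM called 15, but there the median of all genes moved by 0.58 on the log2 scale. The gene called by DESeq2 was Emilin1, an extracellular matrix protein of elastic fibres. Counts were 4.80, 14.7, 3.76 and 16.2 in male PP and 38.3, 39.1, 30.2, 28.1 and 34.0 in female PP livers. Every female value was above every male value, and females exceeded males by 1.75 ± 0.48 on the log2 scale (DESeq2 adjusted P of 0.00693). The call was lost without male PP 3 (adjusted P of 0.0618). It was also lost when transcript length was taken as an offset (adjusted P of 0.484) and in limma on TPM (0.0710). Beside it, the summed counts of the stellate cell and fibroblast markers were 734 to 981 in female PP and 291 to 613 in male PP livers, also without overlap. The endothelial markers (351 to 704 against 171 to 308) and the hepatocyte markers separated the same groups without overlap too. The part of these cells in the Emilin1 difference was not tested. In LL mice Emilin1 had 14.3, 7.19, 26.8 and 10.8 counts in males and 11.8, 21.7, 17.1, 11.1 and 54.7 in females, which overlapped.

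In LL mice 0 of the 51 genes were called between the sexes, against 6.12% of all genes, and edgeR and limma called 0. Without female LL 2, female LL 3 or male LL 3, 1 was called. Unadjusted DESeq2 p below 0.05 was found for 5 genes in PP mice, or 9.80% against 17.5% of all genes, and for 9 genes in LL mice, or 17.6% against 20.0%. Of these, Nom1, Ppm1g and Letm1 were in both lists and lower in females in both. Letm1, a mitochondrial cation exchanger, was picked out after its values were seen. It had 216 to 268 counts in male PP and 154 to 219 in female PP livers, overlapping narrowly, and a log2 fold change of -0.43 ± 0.14 with a DESeq2 adjusted P of 0.0438, but its fold change was short of the limit.

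Several neighbours overlap each other, and the sources used here do not state whether reads were assigned by strand. Of the exon bases of all Cgref1 transcripts together, 12.6% lie over exons of Khk on the opposite strand. Of the 31-base words of Cgref1, 17.8% also occur in other genes. Khk, the fructose kinase gene, averaged 902 ± 112 counts for male PP livers and 1034 ± 345 for male LL livers, and LL relative to PP it stood at 0.20 ± 0.20 for males and 0.14 ± 0.18 for females on the log2 scale. Of the exon bases of Ppp1cb, 17.5% are shared with Gm43312 on the same strand. Reads from such shared bases may be split between the genes. Cgref1 averaged 12.8 counts, far fewer than Khk, and the part of Khk reads in the Cgref1 values was not tested. On average 91.2% of the estimated counts of Cgref1 were on Cgref1-201, which codes for the protein. Most of the sequence of Snx17 (79.9% of its 31-base words), Abhd1 (71.7%) and Ost4 (51.3%) also occurs in other genes, so their values are uncertain. Ywhah and Prr14l share no exon bases with another gene, and 11.8% and 14.8% of their words occur elsewhere.

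Both estimated fragment length and the share of mitochondrial counts moved with genotype in females. Mitochondrial genes took 12.4% ± 1.34 of counts in female LL and 10.2% ± 1.11 in female PP libraries (exact permutation test, two-sided p = 0.0317). In males they took 12.6% ± 3.72 in LL and 9.48% ± 1.00 in PP libraries (exact permutation test, two-sided p = 0.171). The part of this share in the values of the 51 genes was not tested. Fragment length was not measured but estimated, as the median of deposited length minus effective length over transcripts of at least 3000 bases. This estimate was 292 ± 52.1 bases in female LL and 448 ± 108 in female PP libraries (exact permutation test, two-sided p = 0.0159). In males it was 407 ± 156 in LL and 518 ± 95.7 in PP libraries (exact permutation test, two-sided p = 0.286). Across the 51 genes, Spearman's rho between transcript length and log2 fold change was -0.50 in females and -0.10 in males. Over all 10938 tested genes rho with effective length was -0.39 and -0.10, and over the 51 genes by that same measure -0.48 and -0.10. Each rho is a description, as the genes share the same libraries. Prr14l, the longest at 9922 bases, stood at -0.40 in females and -0.48 in males, and Mrpl33, at 649 bases, at 0.47 and 0.08. Of the next longest genes, Nom1, Uvssa and Fosl2 stood at 0.05, 0.30 and 0.06 in females, and Cad and Selenoi at -0.37 and -0.24. With fragment length as a covariate the DESeq2 count at an unadjusted p below 0.05 in females was 4 in place of 8, and with a transcript length offset it was 3. The averaged log2 fold change was then 1.15 ± 0.39 and 1.08 ± 0.34 for Cgref1, 0.26 ± 0.13 and 0.32 ± 0.19 for Ywhah, and -0.43 ± 0.20 and -0.50 ± 0.20 for Prr14l. The shares of all genes for the counts of 4 and 3 are not given, so those counts are no result about the 51 genes.

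**Figure D5:**
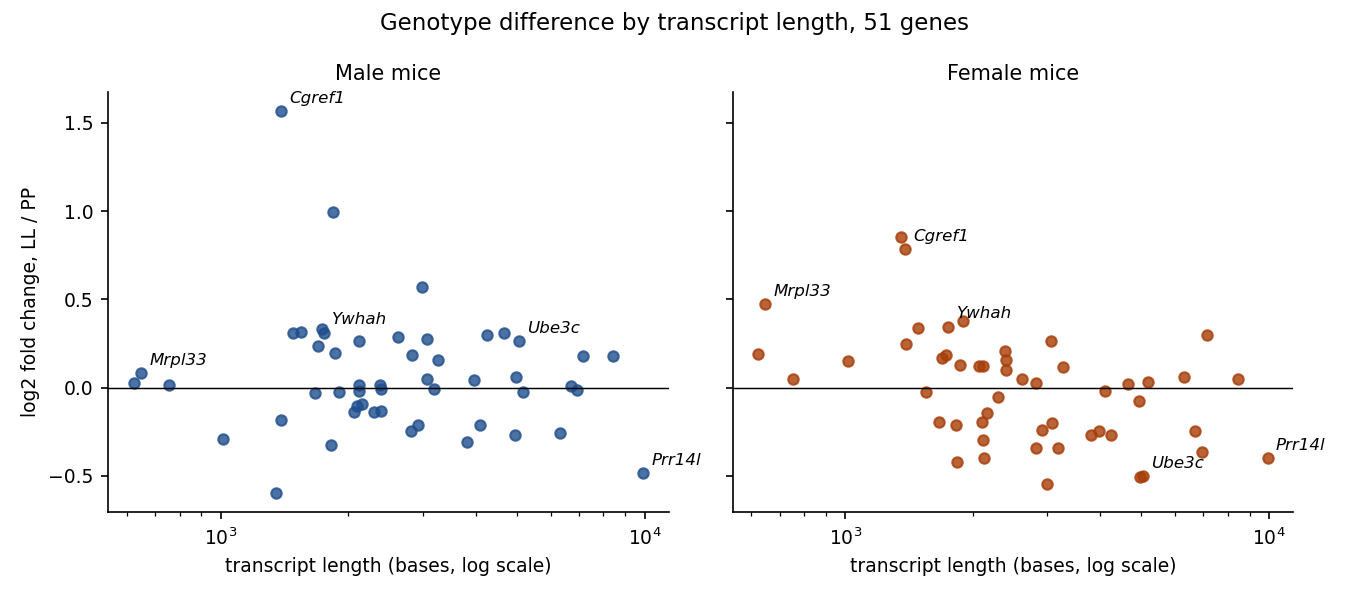
Log2 fold change of LL relative to PP (y axis) against mean transcript length in bases (x axis, log scale) for the 51 genes in male (left) and female (right) mice. Each point is a gene; in females shorter genes tend to lie higher and longer genes lower (Spearman's rho of -0.50), whereas in males rho is -0.10.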

How the data were processed

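Transcript-level tables of 18 liver libraries were used, 1 per mouse. The authors made the tables with Salmon (version 1.4.0 per the submitters' processing notes) against GENCODE M26 transcripts of GRCm39. The estimated counts deposited by the authors are not scaled between libraries, and the deposited TPM values are scaled to 1 total per library. Transcripts were joined to genes through GENCODE M39, a later release. Estimated counts were summed per gene and rounded.

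All 18 libraries entered 1 DESeq2 1.42.0 fit (R 4.3.3, Wald test, 4 groups, median-of-ratios size factors). The fit held 10938 genes. P-values were adjusted by Benjamini-Hochberg over the genes that passed DESeq2's independent filtering (3301 in males, 8598 in females, 7541 in the average), and those of other genes were kept empty. Normalized counts are counts divided by size factors. Values are mean ± SD over mice, log2 fold changes ± SE. p-values cover the spread between mice. Named genes were the 5 nearest Gckr on each side, the 5 with the lowest p per contrast, the 3 highest by TPM, any gene called by genotype or sex, and any whose groups did not overlap in both sexes. The genes and lists were chosen with earlier results of these data known.

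Alternatives were edgeR 4.0.16, limma 3.58.1 on log2(TPM + 0.5), TMM factors, no count filter, no independent filtering, a length offset, fragment length, age or replicate number as terms, the 2 groups alone, a 1 Mb window and leaving out each library. The tests were checked on simulated counts. Replicate numbers did not pair the mice. Within groups, every pair of libraries differed beyond sampling noise. RefSeq sequence tables were not used, as their build differs from the files.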

Additional observations from a re-analysis of the deposited data

Results flagged for a closer look

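In 100 groups of 4 or 5 values (the named genes, fragment length, total counts and summed counts of the 51 genes, each in the 4 groups of mice), a single library far from the rest of its group was found 6 times. Chance alone places about 1 in 20 groups this far. For Emilin1, female LL 5 had 54.7 normalized counts, against 21.7 in the next female LL liver. The same mouse was highest for Nrbp1, at 132 against 121, and lowest for Supt7l, at 18.6 against 27.1. For Ift172, female LL 4 had 43.2 counts against 35.0 in the next. For Supt7l, male LL 4 had 41.1 counts against 35.0. The summed normalized counts of the 51 genes were 4549 in male LL 2, against 4306 in the next male LL liver, with means of 4362 ± 124 for male LL and 4225 ± 106 for male PP livers (SD, n = 4 each). With any 1 library left out, 0 of these genes were called by genotype within a sex.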

How the results depend on the processing

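In males, females and the interaction, 0 of the 51 genes were called under every alternative that could be run, with genes lacking an adjusted P-value counted as not called. In the average, 1 gene (Cgref1) was called without independent filtering and 0 to 1 when single libraries were left out. In males, genes at an unadjusted p below 0.05 numbered 5 with the transcript length offset, 10 in limma on TPM, 1 within 1 Mb of Gckr and 2 to 6 with single libraries left out (6 without male PP 3), in place of 3. In females they numbered 3 with the length offset, 4 with fragment length, 2 in limma, 4 within 1 Mb, 5 with the 2 groups alone and 1 to 8 with single libraries left out, in place of 8. In the average they numbered 2 within 1 Mb and 4 to 7 with single libraries left out (7 without male LL 3), in place of 4. The share of all genes under each setting is not set beside these counts, so they are no result about the 51 genes. The male median log2 fold change was -0.069 with the length offset, 0.27 in limma and 0.0011 to 0.060 with libraries left out. The female median was -0.036 with the length offset, -0.13 in limma, -0.028 with age and -0.050 to 0.044 with libraries left out. Limma on TPM moved the median of all genes by 0.25 in males and -0.09 in females. Between the sexes in PP mice, 0 genes were called with the length offset, 15 in limma and 0 to 1 with libraries left out, and in LL mice 0 to 1.

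With the replicate block, 0 of the 51 genes were called in males, females, the average and the interaction and 1 in PP mice between the sexes, as without it. At an unadjusted p below 0.05 it left 2 genes in males, 4 in females and 4 in the average. Same-numbered livers correlated from -0.17 to 0.16, and 5 of 18 livers correlated best with their own number. The average and the interaction could not be fitted with the 2 groups alone. At this depth the 9 genes averaging below 20 counts carried wide errors. The cause of these movements was not tested.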

Other observations

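Gene totals were steadier than their division among transcripts, in 2 genes picked after their values were seen. For Supt7l, each library held almost all counts on either Supt7l-201 or Supt7l-204 and listed the other at 0. Supt7l-204 was the one listed at 0 in 4 of 5 female PP and 1 of 5 female LL livers, and in 2 of 4 male PP and 1 of 4 male LL livers. For Atraid, the transcript Atraid-201, 1 of several coding transcripts, was listed at 0 in all 5 female LL livers. It was also at 0 in 1 of 5 female PP, 1 of 4 male PP and 2 of 4 male LL livers. Its estimated counts reached 239 in female PP 1. Atraid-202, also coding, averaged 63.7 estimated counts in female LL and 26.5 in female PP livers. The gene total of Atraid was nevertheless 190 to 216 normalized counts in female LL and 169 to 213 in female PP livers. A listed 0 is an estimate and does not show that a transcript is absent, and estimated fragment length was shorter in female LL libraries. The part of fragment length in this division was not tested.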
